A study of Mus musculus with 7 samples.

Results

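The cytosolic ribosomal protein genes, which encode the proteins of the small (40S) and large (60S) ribosomal subunits, were compared between WT and TET1 KO livers gene by gene. Members were taken by symbol, namely Rps, Rpl or Rplp followed by a number and at most a letter and further digits, and had to reach 10 counts in each of the 7 libraries. Among the 51426 genes in the count tables, 88 carried such a symbol and 85 reached the minimum, of which 35 belonged to the 40S and 50 to the 60S subunit. The 3 genes left out were Rpl10l with 0 to 1 counts per library, Rpl3l with 0 to 4 counts and Rpl39l with 1 to 10 counts. Rpl10l and Rpl39l are known from testis and Rpl3l from muscle. The members include Rps3a2, Rps3a3, Rps4l, Rps12l1, Rpl6l and Rpl32l, which are close copies of other members. Of these, all except Rpl32l are annotated as pseudogenes by RefSeq, so that 80 of the 85 members are annotated as protein coding.

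The groups were WT (n = 3) and TET1 KO (n = 4), all of them male mice labelled C57BL/6J and fed a high-fat diet (HFD) for 16 weeks, begun at 8 weeks of age. TET1 is an enzyme that oxidizes 5-methylcytosine in DNA, and the TET1 KO mice lacked it in the whole body and not in hepatocytes alone. The study describes the libraries as liver samples of as many mice, so p-values measure the spread between animals, although the labels themselves only number the replicates. The study names the sequenced genotypes TET1 wt/wt and TET1 -/-, the names it also gives to its null line listed as B6;129S4, and the labels give C57BL/6J for all 7 libraries. A library held between 15005277 and 22746138 counts. The deleted gene could not check the labels, since Tet1 had 1 to 4 counts in WT and 1 to 4 counts in TET1 KO libraries. The 6 hepatocyte markers, among them Alb and Hnf4a, summed to between 63304 and 84838 counts per 1000000 counts of the library (CPM, on TMM-scaled library sizes) in WT and between 75316 and 84760 CPM in TET1 KO livers. In TET1 KO 1, 14.4% of the counts came from mitochondrially encoded genes, against 7.25% to 10.9% in the other 6 libraries.

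Each ribosomal subunit is built from ribosomal RNA and a fixed set of proteins of which nearly all are present as a single copy per subunit, so cells make these proteins in closely matched amounts. The 40S subunit reads the mRNA, and the 60S subunit joins the amino acids into a chain. Mammalian ribosomal protein mRNAs typically begin with a C followed by a run of pyrimidines, the 5′ terminal oligopyrimidine (TOP) tract, through which mTORC1 and LARP1 control their translation. Hepatocytes, which export most of the plasma proteins, are rich in ribosomes.

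The start sites of a few members are shown because the TOP tract is the sequence feature that these genes are known to share, and because the members shown span the largest and the smallest differences between the groups. Each stretch comes from the RefSeq promoter windows of build GRCm38.p6, holds 15 bases before the annotated start and 15 from it onwards, and runs 5′ to 3′ on the strand of the gene. Capitals mark the longest uninterrupted run of C and T that comes within 2 bases of the start, and Rpl4 has none there. The starts shown for Rpl18, Rps2 and Rpl35a lie inside the genes as annotated and not at their 5′ ends. Of the 3 starts given for Rpl35a, the printed one has a run of 13. The start at its 5′ end has a run of 4, and the remaining start a run of 1.
Rpl27a (chr7:109519180-109519209, plus strand): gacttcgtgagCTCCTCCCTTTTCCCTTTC
Rpl18 (chr7:45718056-45718085, plus strand): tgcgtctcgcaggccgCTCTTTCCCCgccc
Rpl35a (chr16:33056467-33056496, plus strand): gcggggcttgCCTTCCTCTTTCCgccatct
Rps6 (chr4:86857353-86857382, minus strand): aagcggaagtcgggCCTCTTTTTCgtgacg
Rps18 (chr17:33955651-33955680, minus strand): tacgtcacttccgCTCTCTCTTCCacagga
Rpl13 (chr8:123102335-123102364, plus strand): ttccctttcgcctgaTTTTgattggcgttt
Rps28 (chr17:33824548-33824577, minus strand): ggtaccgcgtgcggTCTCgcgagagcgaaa
Rpl37 (chr15:5116598-5116627, plus strand): agtttcctgggcggaagCTTatccacagga
Rps7 (chr12:28635939-28635968, minus strand): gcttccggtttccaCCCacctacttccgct
Rps2 (chr17:24720048-24720077, plus strand): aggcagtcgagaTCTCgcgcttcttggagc
Rpl4 (chr9:64173372-64173401, plus strand): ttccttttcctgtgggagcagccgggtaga

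The printed stretches of Rpl27a, Rpl18, Rpl35a, Rps6 and Rps18 held runs of at least 8 pyrimidines at the start, and those of the other 6 genes printed did not. A start window was given for 60 of the 85 members, and 22 of them (36.7%) had such a run at an annotated start, against 7.98% of the 27025 genes with a window. The motif CCGGAAG, searched on both strands over 250 bases before and 50 after the start, was held by 24 of the 60 members (40%) and by 9.93% of all genes. CTTTCC, which can overlap the pyrimidine run, was held by 50% of these members and 29.3% of all genes, AAGATGGC by 10% and 3.19%, and TATAAA by 13.3% and 15.7%.

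Of the 85 members, 5 were called higher in TET1 KO than in WT livers, 2 of the 40S and 3 of the 60S subunit, and 78 had a positive log2 fold change (TET1 KO over WT), with a median of 0.50 over all members against 0.01 over the 14754 genes tested. The 5 members that passed the test, called at an adjusted p under 0.05, included Rpl18, Rpl27a, Rps28 and Rpl13, and all of them rose. These 5 made up 5.88% of the members, whereas 0.874% of all tested genes were called higher. No member was called lower by edgeR's quasi-likelihood test or by DESeq2, whereas 1.15% of all tested genes were called lower by edgeR. At an unadjusted p under 0.05, none was lower, against 12.7% of all tested genes. In bulk liver, more RNA per cell and more cells of a type that is rich in these mRNAs cannot be told apart.

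Between the threshold of 0.05 and an adjusted p of 0.1 lay 33 members, and the other 47 had an adjusted p of 0.1 or above. At an adjusted p under 0.1, 38 members (44.7%) were called higher, against 5.70% of all tested genes. At an unadjusted p under 0.05, 57 members (67.1%) were higher, against 13.6% of all tested genes. The lowest TET1 KO library lay above the highest WT library for 57 members (67.1%), against 11.7% of all tested genes, and no member showed the opposite separation, which 10.8% of all tested genes showed. DESeq2 called 35 members higher (41.2%, against 4.16% of the genes it tested), 12 of the 40S and 23 of the 60S subunit.

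**Figure D1:**
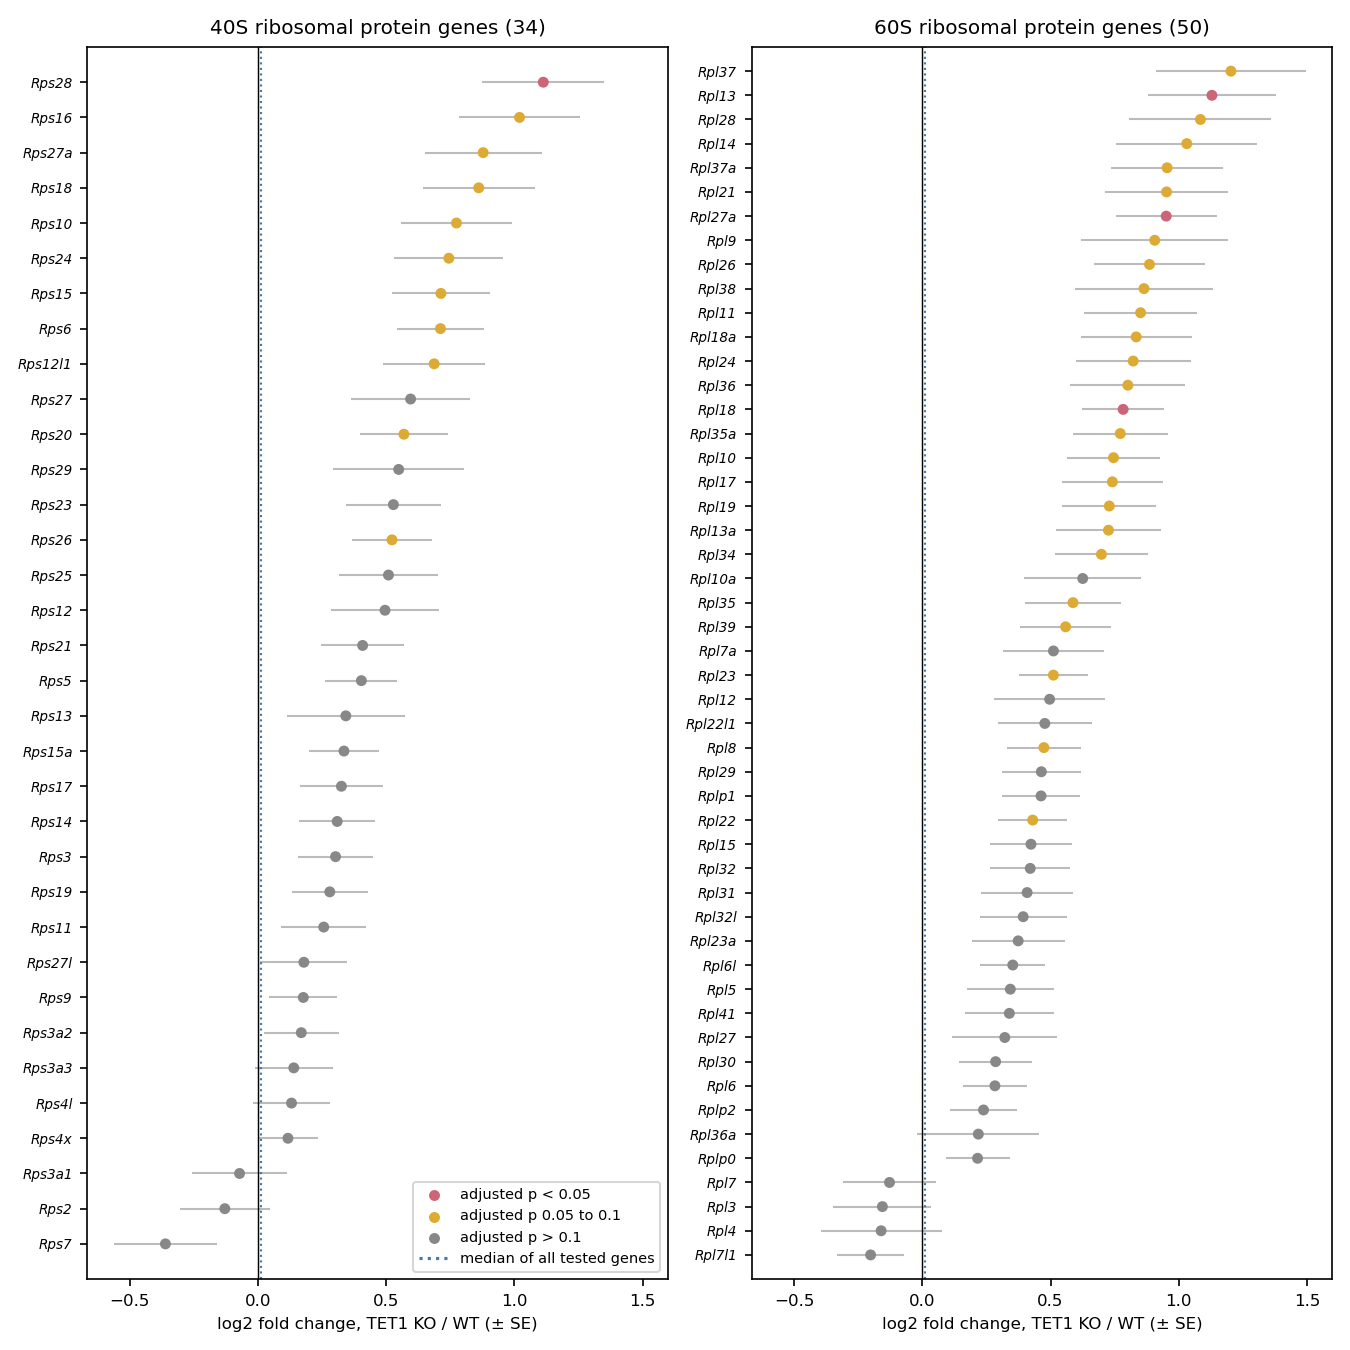
Log2 fold change (TET1 KO over WT, x axis, ± standard error) of 84 members, sorted within the 40S (left, 34 genes) and 60S (right, 50 genes) subunit and coloured by the adjusted p of the edgeR test. The points lie to the right of 0 for 77 of them and to the left for 7, and the dotted line is the median of 0.01 over all tested genes.

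The number of members called at an adjusted p of 0.05 varied with the libraries kept, as did the number over all tested genes. Leaving out WT 2, WT 3, TET1 KO 1, TET1 KO 2 or TET1 KO 3 left 0 members called in each case. Over all tested genes, 16, 68, 82, 45 and 31 were called higher in these fits, of 14502 to 15101 tested, against 129 of 14754. Of the members, 39 to 52 were still higher at an unadjusted p under 0.05, and the share over all genes was not computed there. Without TET1 KO 1, the median log2 fold change of the members was 0.44. Without TET1 KO 4, 25 members and 427 of 14420 tested genes were called higher, and without WT 1, 3 members and 125 of 15002 tested genes. Over the 7 such fits the median log2 fold change of the members ranged from 0.36, without WT 2, to 0.57, without WT 1.

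Among the 40S genes, 2 of 35 were called higher (5.71%, against 0.874% of all tested genes). At an adjusted p under 0.1, 12 were higher (34.3%, against 5.70%), and 32 had a positive log2 fold change, with a median of 0.41. Rps28 (chr17:33823036-33824562 on GRCm38.p6), which sits near the exit of the mRNA channel, had 31.4, 14.2 and 24.8 CPM in the WT libraries and 58.2, 54.4, 49.0 and 41.3 CPM in the TET1 KO libraries. All TET1 KO libraries lay above all WT libraries, and WT 2 had less than any other library. Rps28 rose 2.16-fold, from 23.5 ± 8.67 (SD, n = 3) to 50.7 ± 7.32 CPM (SD, n = 4), with a log2 fold change of 1.11 (SE 0.24), the largest of the 40S subunit, and an adjusted p of 0.0437 by edgeR's quasi-likelihood test.

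A further 4 genes of the 40S subunit lay just above the threshold. Rps16, whose tail reaches the P site of the ribosome, had 18.7, 10.2 and 15.9 CPM in WT 1 to 3 and 41.3, 28.5, 25.5 and 25.7 CPM in TET1 KO 1 to 4. Its log2 fold change was 1.02 (SE 0.24, adjusted p = 0.0533). The groups did not overlap, and TET1 KO 1 was far above the other 3 TET1 KO libraries. The log2 fold changes of Rps16, Rps6, Rps18, Rps27a, Rps24, Rpl18 and Rpl13 were smaller when counts of their pseudogenes were added, as given with the pseudogenes, at Rpl13 or at Rps24. Rps6, the protein that S6 kinase phosphorylates downstream of mTORC1, had 35.9, 24.3 and 34.4 CPM in the WT libraries and 62.4, 50.6, 47.4 and 46.3 CPM in the TET1 KO libraries. Its log2 fold change was 0.71 (SE 0.17, adjusted p = 0.0575), and the same order of libraries recurred, with WT 2 lowest and TET1 KO 1 highest.

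Rps18, a protein of the head of the 40S subunit, had 70.8, 39.7 and 65.8 CPM in WT 1 to 3 and 138, 98.6, 102 and 87.5 CPM in TET1 KO 1 to 4, with a log2 fold change of 0.86 (SE 0.22, adjusted p = 0.0641). Rps27a, made as a fusion of ubiquitin and a 40S protein, had 12.8, 8.66 and 13.5 CPM in the WT libraries and 30.1, 19.7, 19.1 and 16.9 CPM in the TET1 KO libraries. Its log2 fold change was 0.88 (SE 0.23, adjusted p = 0.0663). For both genes the groups were separate, and WT 2 was the lowest and TET1 KO 1 the highest library.

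Within the 60S subunit, 3 of 50 genes were called higher (6%, against 0.874% of all tested genes). At an adjusted p under 0.1, 26 were higher (52%, against 5.70%), and 46 had a positive log2 fold change, with a median of 0.51. Rpl18, a protein of the large subunit, had 22.1, 16.7 and 20.9 CPM in WT 1 to 3 and 41.4, 30.4, 34.3 and 30.99 CPM in TET1 KO 1 to 4. All 4 TET1 KO libraries exceeded the WT libraries, and the difference had the smallest p of all members. Rpl18 (chr7:45715467-45720835 on GRCm38.p6) rose 1.72-fold, with a log2 fold change of 0.78 (SE 0.16) and an adjusted p of 0.0367. With its pseudogene counts added the log2 fold change was 0.52, and Rpl18 was then not called (adjusted p = 0.0741). Rpl27a (chr7:109519195-109522369), the gene with the unbroken pyrimidine run printed first above, had 34.5, 22.6 and 36.6 CPM in the WT libraries and 75.7, 60.4, 55.6 and 49.6 CPM in the TET1 KO libraries. It rose 1.93-fold, from 31.2 ± 7.52 (SD, n = 3) to 60.3 ± 11.2 CPM (SD, n = 4), with a log2 fold change of 0.95 (SE 0.20, adjusted p = 0.0390). The lowest TET1 KO library thus stood above the highest WT library by more than the SD of either group.

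Rpl13 (chr8:123102350-123105244) had 39.96, 23.9 and 37.8 CPM in WT 1 to 3 and 109.6, 60.5, 67.8 and 58.5 CPM in TET1 KO 1 to 4. TET1 KO 1 was far above the other TET1 KO libraries, which still exceeded every WT library. Rpl13 rose with a log2 fold change of 1.13 (SE 0.25, adjusted p = 0.0472), and without TET1 KO 1 the value was 0.88. With its pseudogene counts added it was 0.89, and the gene was then not called (adjusted p = 0.0534, with 0.000873 to 0.221 over all settings). Rpl37, which binds zinc, had the largest log2 fold change of all members, 1.20 (SE 0.29), without passing the test (adjusted p = 0.0590). Its levels were 18.8, 9.37 and 15.2 CPM in the WT libraries and 49.3, 32.8, 29.6 and 21.6 CPM in the TET1 KO libraries. The highest TET1 KO library of Rpl37 was 2.29 times the lowest, and the log2 fold change without TET1 KO 1 was 0.95.

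Rpl37a, another zinc-binding protein of the 60S subunit, had 38.9, 25.5 and 40.3 CPM in WT 1 to 3 and 93.2, 58.2, 63.8 and 55.0 CPM in TET1 KO 1 to 4. Its log2 fold change was 0.95 (SE 0.22, adjusted p = 0.0513). Rpl35a, a gene mutated in Diamond-Blackfan anemia, had 85.5, 52.1 and 77.2 CPM in the WT libraries and 147, 121, 113 and 106 CPM in the TET1 KO libraries, a log2 fold change of 0.77 (SE 0.19, adjusted p = 0.0575). Both genes had separate groups and the same lowest and highest libraries, WT 2 and TET1 KO 1.

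**Figure D2:**
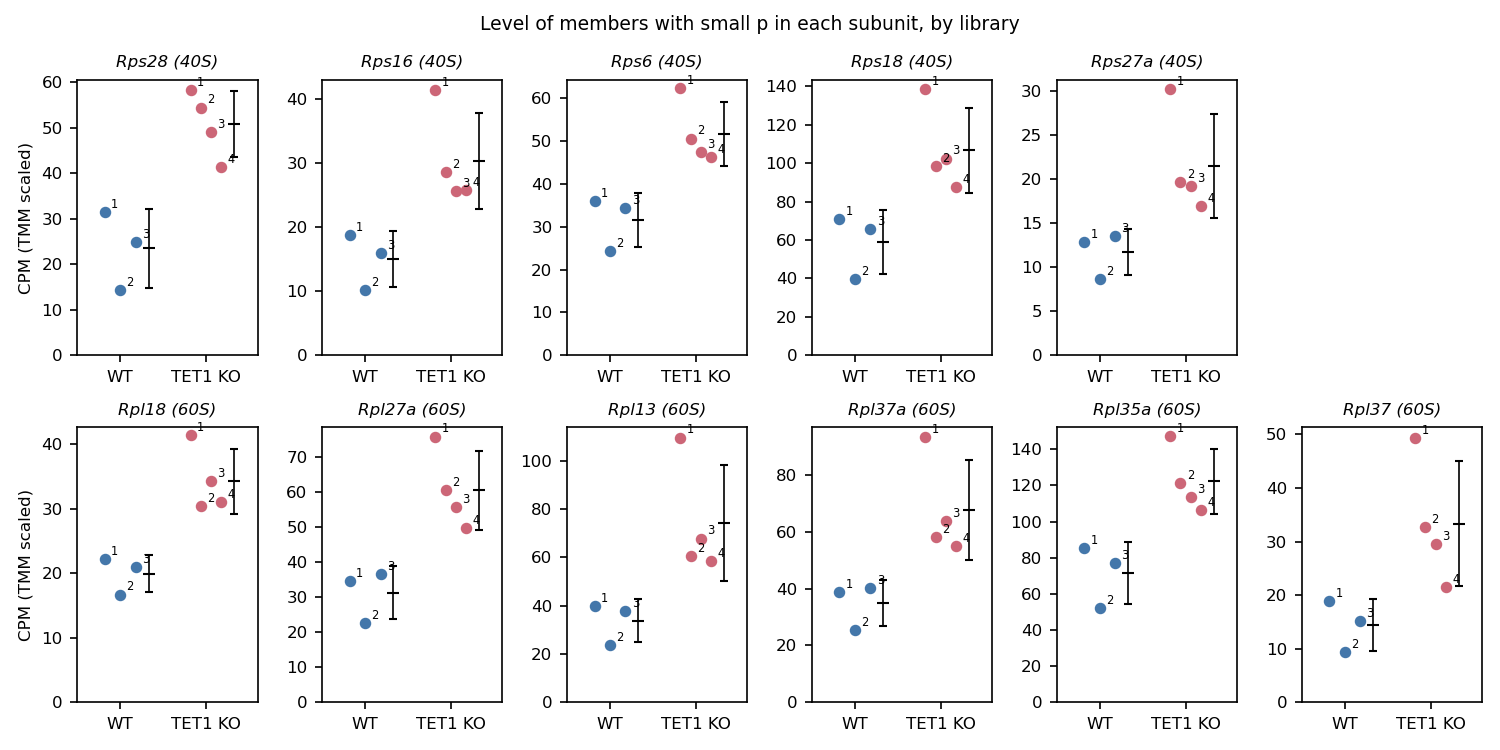
TMM-scaled CPM (y axis, from 0) of 5 members of the 40S (top) and 6 of the 60S (bottom) subunit, all among the 6 smallest p of their subunit, in each WT (blue) and TET1 KO (red) library, numbered as in the labels, with the group mean ± SD in black. In all 11 panels the 4 TET1 KO libraries lie above the 3 WT libraries, WT 2 is the lowest point and TET1 KO 1 the highest.

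The members with the most counts, which need not be the highest per length, are given next. Rps3 and Rps9, which line the entry of the mRNA channel, had 226, 194 and 232 CPM and 218, 199 and 236 CPM in WT 1 to 3. In TET1 KO 1 to 4, Rps3 had 318, 268, 241 and 245 CPM and Rps9 had 223, 261, 234 and 266 CPM. The groups were separate for Rps3 (log2 fold change 0.30, SE 0.15, adjusted p = 0.215) and overlapped for Rps9 (0.18, SE 0.13, adjusted p = 0.409). Rps24, also mutated in Diamond-Blackfan anemia, had 189, 114 and 184 CPM in WT and 349, 278, 241 and 222 CPM in TET1 KO livers, and its log2 fold change of 0.74 (SE 0.21, adjusted p = 0.0792) was nearer to that of the top genes. With its pseudogene counts added, Rps24 had a log2 fold change of 0.57 (adjusted p = 0.0949, with 0.0174 to 0.304 over all settings).

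Rpl8, which lies next to the peptidyl transferase centre, had 265, 243 and 286 CPM in WT 1 to 3 and 434, 343, 350.0 and 345 CPM in TET1 KO 1 to 4. Its log2 fold change was 0.47 (SE 0.15, adjusted p = 0.0897), with separate groups. Rpl41, which encodes a very short peptide, had 209.5, 152 and 226 CPM in the WT libraries and 293, 261, 213 and 224 CPM in the TET1 KO libraries. Its groups overlapped, and the log2 fold change was 0.34 (SE 0.17, adjusted p = 0.237). Rpl4, which had the most counts of all members, had a negative log2 fold change and is given with the genes of that sign.

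The P stalk, through which the 60S subunit recruits the elongation factors, is built from Rplp0, Rplp1 and Rplp2. Rplp1 had 204, 141 and 189 CPM in WT 1 to 3 and 250.4, 267, 232 and 232 CPM in TET1 KO 1 to 4, a log2 fold change of 0.46 (SE 0.15, adjusted p = 0.102). Rplp0 had 174, 174 and 196 CPM in the WT libraries and 198, 226, 202 and 216 CPM in the TET1 KO libraries, a log2 fold change of 0.22 (SE 0.12, adjusted p = 0.287). Both were separate between the groups without passing the test, and for Rplp0 the gap between the highest WT and the lowest TET1 KO library was small. Rplp2 had 39.3, 32.3 and 32.6 CPM in WT and 36.3, 42.1, 44.5 and 41.0 CPM in TET1 KO livers. TET1 KO 1 fell within the WT range there, and the log2 fold change was 0.24 (SE 0.13, adjusted p = 0.268).

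A few members are paralogs of others and were also measured. Rpl22l1, the paralog of Rpl22, had 14.1, 9.29 and 12.8 CPM in WT 1 to 3 and 19.9, 17.6, 15.2 and 14.4 CPM in TET1 KO 1 to 4, a log2 fold change of 0.48 (SE 0.18, adjusted p = 0.137). Rpl22 had 129, 112 and 135 CPM in the WT libraries and 191, 171, 155 and 157 CPM in the TET1 KO libraries, a log2 fold change of 0.43 (SE 0.13, adjusted p = 0.0922). Both members of the pair had separate groups and alike fold changes. Rps27l, a p53-inducible paralog of Rps27, had 252, 164 and 199.9 CPM in WT and 225, 263, 245 and 197 CPM in TET1 KO livers, with overlapping groups and a log2 fold change of 0.18 (SE 0.17, adjusted p = 0.516). Rps27 itself had few counts, with 2.02, 1.82 and 1.55 CPM in WT and 3.26, 2.32, 2.61 and 2.69 CPM in TET1 KO livers. Its groups were separate, with a log2 fold change of 0.59 (SE 0.23, adjusted p = 0.142), and 99.7% of its 31-base words also occur elsewhere in the genome. Rps4l, a copy of Rps4x, had 23.4, 17.0 and 22.9 CPM in WT and 25.4, 22.4, 20.8 and 23.7 CPM in TET1 KO livers, which gave a log2 fold change of 0.13 (SE 0.15, adjusted p = 0.602).

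Negative log2 fold changes were found for 7 members, none of which passed the test. Rps7 had 8.71, 11.4 and 9.44 CPM in WT 1 to 3 and 6.45, 6.90, 6.80 and 10.4 CPM in TET1 KO 1 to 4. The log2 fold change of -0.36 (SE 0.20, adjusted p = 0.271) was the lowest of all members, and TET1 KO 4 lay within the WT range. Rpl7l1, a paralog of Rpl7, had 48.9, 59.3 and 62.0 CPM in the WT libraries and 45.3, 47.9, 50.4 and 53.5 CPM in the TET1 KO libraries. Its log2 fold change was -0.20 (SE 0.13, adjusted p = 0.332). Rps7 and Rpl7l1 were the only members for which no TET1 KO library exceeded the highest WT library.

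Rpl4 and Rpl3, which join the large subunit early in its assembly, also had negative values. Rpl4 had 319, 372 and 411 CPM in WT 1 to 3 and 187, 369.9, 343 and 413 CPM in TET1 KO 1 to 4, so that the log2 fold change of -0.16 (SE 0.24, adjusted p = 0.686) rested on TET1 KO 1 and was 0.033 without it. Rpl3 had 16.2, 20.2 and 21.0 CPM in WT and 14.7, 13.5, 17.7 and 22.8 CPM in TET1 KO livers, which gave a log2 fold change of -0.16 (SE 0.19, adjusted p = 0.624). In Rpl4, TET1 KO 1 was the lowest library, whereas in the called genes it was the highest.

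Rps2, next to Rps3 at the mRNA entry, had 184, 223 and 209.6 CPM in WT and 142, 203, 171 and 235 CPM in TET1 KO livers, which gave a log2 fold change of -0.13 (SE 0.17, adjusted p = 0.657). Rpl7 had 137, 151 and 149 CPM in WT and 90.9, 147, 132 and 163 CPM in TET1 KO livers, which gave a log2 fold change of -0.13 (SE 0.18, adjusted p = 0.674). Rps3a1, the 40S member with the largest p, had 32.3, 43.9 and 37.9 CPM in WT and 25.6, 37.5, 36.9 and 44.6 CPM in TET1 KO livers, which gave a log2 fold change of -0.07 (SE 0.19, adjusted p = 0.825). TET1 KO 1 was the lowest library in all 3 genes, and without it Rpl7 and Rps3a1 had values of 0.018 and 0.062.

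The libraries differed from each other in how far the members lay from the WT mean. The median log2 deviation of the 85 members from the mean of the WT libraries was 0.18, -0.31 and 0.14 in WT 1 to 3 and 0.67, 0.53, 0.49 and 0.36 in TET1 KO 1 to 4. WT 2 was the lowest WT library for 72 of the 85 members, and without it the median log2 fold change was 0.36 in place of 0.50. TET1 KO 1 was the highest TET1 KO library for 55 members and the lowest for 15, whereas TET1 KO 4 was the lowest for 49. Each TET1 KO library exceeded all 3 WT libraries in 67 to 72 of the members. The same count over all tested genes was not taken for single libraries.

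Summed over members, the 40S genes reached 2633 ± 349.6 CPM in WT (SD, n = 3) and 3420 ± 199.8 CPM in TET1 KO livers (SD, n = 4), 1.30 times the WT mean. The 60S genes reached 3065 ± 408 and 4214 ± 373 CPM, 1.37 times the WT mean. The sums were 2829, 2229 and 2841 CPM for the 40S and 3248, 2598 and 3349 CPM for the 60S subunit in WT 1 to 3. In TET1 KO 1 to 4 they were 3602, 3584, 3257 and 3238 CPM for the 40S and 4732, 4216, 4034 and 3873 CPM for the 60S subunit. The groups did not overlap in either sum. The 40S genes made up 46.6%, 46.2% and 45.9% of the member total in the WT libraries and 43.2%, 45.9%, 44.7% and 45.5% in the TET1 KO libraries, and these ranges overlapped, since TET1 KO 2 lay just above WT 3.

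**Figure D3:**
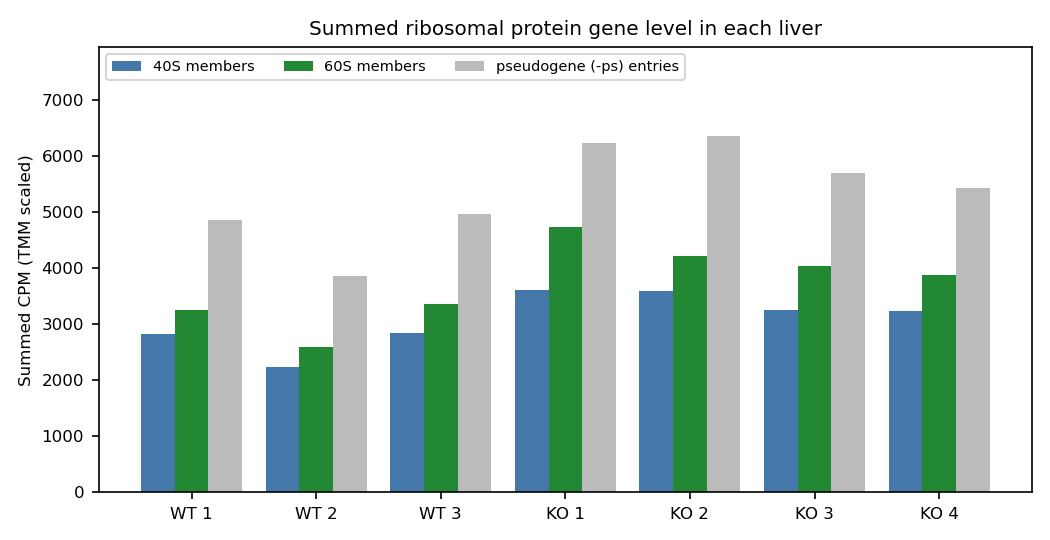
Summed TMM-scaled CPM (y axis, from 0) of the 40S members, the 60S members and the pseudogene entries of ribosomal proteins in each of the 7 libraries. Each of the 3 sums is higher in every TET1 KO library than in every WT library, and WT 2 is the lowest of all.

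Levels per length differed widely between the members. Among the 82 members with an annotated transcript, the WT mean had a median of 38.9 CPM per kilobase, with quartiles at 14.7 and 117. The highest was Rplp1 with 359.6 CPM per kilobase and the lowest Rps13 with 3.85 CPM per kilobase, a 93.4-fold span. Rps13, chosen after its value was seen, had 73 to 138 counts of its own and 2207 to 3041 in its pseudogene entries, and with these added it stood at 96.0 CPM per kilobase. The median of the members was then 129 CPM per kilobase, and the span was 103-fold, from Rps27 with 5.20 to Rpl10 with 536 CPM per kilobase. The level per kilobase had a Spearman correlation of -0.06 across the 82 genes with the share of their 31-base words found elsewhere in the genome. These genes share libraries and are not independent replicates.

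The mouse genome holds many processed pseudogenes of ribosomal protein genes, which are copies of their mRNAs, and 279 entries in the count tables carried a ribosomal protein gene's symbol with the ending -ps, for 278 of them the symbol of a member. Together they held 0.410% to 0.506% of the counts in WT and 0.539% to 0.610% in TET1 KO libraries, nearly as much as the members, which held 0.512% to 0.633% and 0.691% to 0.817%. Of the 112 pseudogene entries tested, 100 (89.3%) had a positive log2 fold change, against 51.1% of all tested genes, with a median of 0.45. The quasi-likelihood test of edgeR called 1 higher (0.893%, near the 0.874% of all tested genes). This was Rpl17-ps9 (log2 fold change 0.79, SE 0.16, adjusted p = 0.0418). At an unadjusted p under 0.05, 60 were higher (53.6%, against 13.6% of all tested genes) and 1 was lower (against 12.7%). DESeq2 called 26 higher and 0 lower, whereas it called 4.16% of the genes it tested higher. Reads of a gene and of its copies could not be told apart here. The 5 members annotated as pseudogenes had log2 fold changes between 0.13 and 0.69, none of them called by edgeR's quasi-likelihood test and 2 higher at an unadjusted p under 0.05, of which DESeq2 called 1 higher, Rps12l1. Without them, the 80 protein-coding members had a median of 0.51, with 5 called higher and 0 lower.

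The counts of these 278 entries were therefore added to those of their members as an alternative chosen after seeing the data. The median log2 fold change of the members then was 0.43, with 3 members called higher, among them Rpl27a and Rps28. Rpl18, with 379 to 670 counts of its own and 1169 to 1543 in its pseudogene entries, had a log2 fold change of 0.52 when summed (adjusted p = 0.0741) in place of 0.78, and over all settings its adjusted p ran from 0.0015 to 0.173. Rps6 had 586 to 997 counts of its own and 4727 to 6366 in its pseudogene entries. Its summed log2 fold change was 0.37 (adjusted p = 0.135, with 0.00811 to 0.240 over all settings) in place of 0.71. Rps16 moved from 1.02 to 0.56 (adjusted p = 0.0967, with 0.00276 to 0.224 over all settings) and Rps18 from 0.86 to 0.55 (adjusted p = 0.0802, with 0.00716 to 0.251 over all settings). Rps27a moved from 0.88 to 0.22 (adjusted p = 0.307, the highest over all settings, of which the lowest was 0.0119). Rps28 and Rpl37 had no such entry to add.

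Other genes with short transcripts were examined beside the members. Among the 772 other tested genes with a longest annotated transcript under 1000 bases the median log2 fold change was 0.20. Of these genes, 27.2% were higher at an unadjusted p under 0.05, against 13.6% of all tested genes. The quasi-likelihood test of edgeR called 7 of them higher (0.907%, near the 0.874% of all tested genes) and 5 lower. Their median log2 deviation from the WT mean was 0.16, -0.22 and 0.052 in WT 1 to 3 and 0.15, 0.28, 0.24 and 0.18 in TET1 KO 1 to 4, so that the groups overlapped and WT 2 was the lowest. Among those of 1000 to 2000 bases the median was 0.02. The 57 members under 1000 bases had a median of 0.55 and 71.9% of them were higher at an unadjusted p under 0.05, and the 25 longer members had a median of 0.34 and 56.0%. Across the 82 members the Spearman correlation between log2 fold change and length was -0.28, and across 12426 other tested genes it was -0.07. Of the 7 negative members, 5 had transcripts of 1000 bases or more. The part of transcript length in the difference between the groups was not tested.

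**Figure D4:**
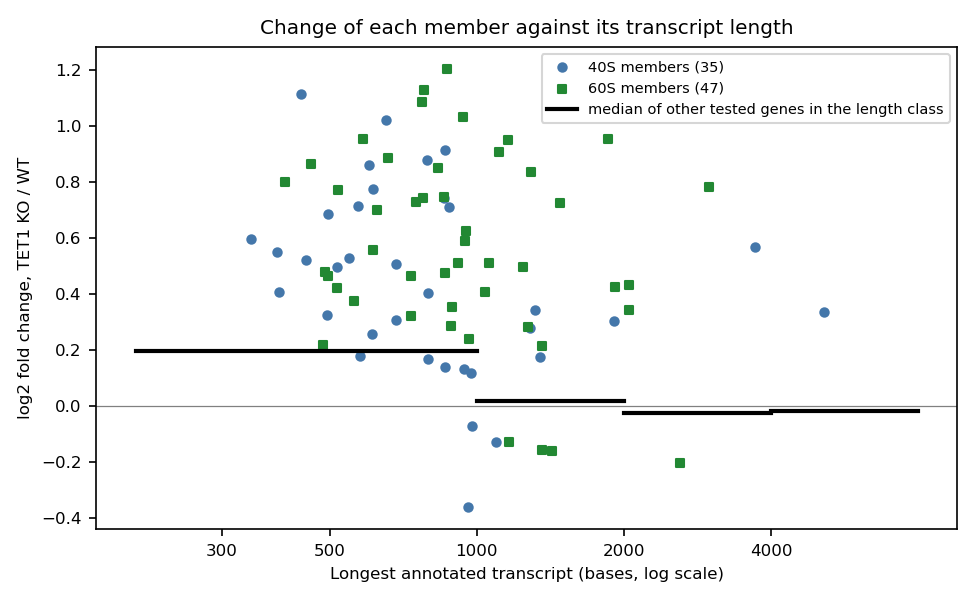
Log2 fold change (TET1 KO over WT, y axis) of the 82 members with an annotated transcript against the length of the longest one (x axis, log scale), for the 40S (circles) and 60S (squares) subunit. Black bars mark the median of the other tested genes in each length class, 0.20 under 1000 bases and 0.02 from 1000 to 2000 bases, and most members lie above the bar of their class.

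By start sequence, the 22 members with a pyrimidine run of at least 8 bases at a start had a median log2 fold change of 0.72, ranging from 0.18 to 1.08, and all 22 values were positive. The 38 members with a window and no such run had a median of 0.46, ranging from -0.36 to 1.20, and 33 were positive. They are not shown to lack a TOP tract, since only runs within 2 bases of an annotated start were scored. The printed stretch of Rpl4, for example, holds a pyrimidine run further upstream. For the 25 members without a window the median was 0.42. Members with and without CCGGAAG had medians of 0.54 and 0.51. These medians describe the members and were not tested.

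Ribosomal proteins with other names were compared as well. Of the 4 described here, all were higher in mean and none passed edgeR's quasi-likelihood test, with 2 higher at an unadjusted p under 0.05 and called higher by DESeq2 (Fau and Rpsa). Fau, which encodes a ubiquitin-like protein fused to a 40S protein, had 25.2, 16.1 and 22.2 CPM in WT 1 to 3 and 45.3, 32.4, 33.8 and 31.5 CPM in TET1 KO 1 to 4, a log2 fold change of 0.76 (SE 0.19, adjusted p = 0.0618). Its groups were separate, with WT 2 lowest and TET1 KO 1 highest. Rpsa, a 40S protein, had 173, 113 and 166 CPM in WT 1 to 3 and 394, 267, 241 and 204 CPM in TET1 KO 1 to 4, with a log2 fold change of 0.88 (SE 0.23, adjusted p = 0.0696). Rack1, a signalling scaffold on the 40S head, had 193, 166 and 207 CPM in WT and 221, 239.6, 222 and 225 CPM in TET1 KO livers, and its log2 fold change was 0.27 (SE 0.13, adjusted p = 0.215). Rpl36al, a paralog of Rpl36a, had 119.7, 86.5 and 112 CPM in the WT libraries and 167, 121, 137 and 113 CPM in the TET1 KO libraries, and its log2 fold change was 0.35 (SE 0.17, adjusted p = 0.219). The groups were separate in all of these except Rpl36al.

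Other genes of ribosome production and translation were compared as lists. The 79 ribosome biogenesis genes, which process and assemble the subunits, had a median log2 fold change of -0.02. In either direction, 0 were called by edgeR's quasi-likelihood test or by DESeq2. At an unadjusted p under 0.05, 6 were higher (7.59%) and 5 lower, against 13.6% and 12.7% of all tested genes. A list of 52 translation factors and other TOP mRNAs, the latter being Tpt1, Naca, Btf3, Nap1l1 and Hnrnpa1, had a median of -0.03, with 0 called by edgeR. At an unadjusted p under 0.05, 8 of its genes were higher (15.4%) and 6 lower, against the same 13.6% and 12.7%. DESeq2 called 2 genes of this list higher, the elongation factor Eef1g and Tpt1, and 1 lower, Gspt1. At an adjusted p under 0.1, 3 were higher (5.77%, near the 5.70% of all tested genes), Eef1g, Tpt1 and Naca (log2 fold changes 0.57, 0.76 and 0.40), and Gspt1, a termination factor, was lower (-0.61). The remaining TOP mRNAs named above, Btf3, Nap1l1 and Hnrnpa1, had log2 fold changes of 0.26, -0.30 and -0.19. The list of mTORC1 and MYC genes, with 38 of 39 tested, had a median of 0.05 and 0 called by edgeR. At an unadjusted p under 0.05, 2 were higher (5.26%) and 5 lower, against 13.6% and 12.7% of all tested genes. At an adjusted p under 0.1, 2 of the 38 were lower, as were 825 of all 14754 tested genes. They were Rraga and Larp4, with log2 fold changes of -0.85 and -0.56. DESeq2 called both lower, as it did 689 of the 15051 genes it tested.

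The 78 mitochondrial ribosomal protein genes, which serve the separate ribosome of mitochondria, had a median log2 fold change of 0.15, and 58 were positive. None was called in either direction by edgeR's quasi-likelihood test, and DESeq2 called 1 higher, Mrpl52. At an unadjusted p under 0.05, 15 were higher (19.2%, against 13.6% of all tested genes) and 2 lower (against 12.7%). The 4 that were higher at an adjusted p under 0.1 (5.13%, near the 5.70% of all tested genes) were Mrpl52, Mrps15, Mrpl24 and Mrpl27, with log2 fold changes of 0.70, 0.50, 0.40 and 0.38. Each of these lists thus lay nearer to the median of 0.01 over all tested genes than the cytosolic members did, and the difference between the lists was not tested.

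**Figure D5:**
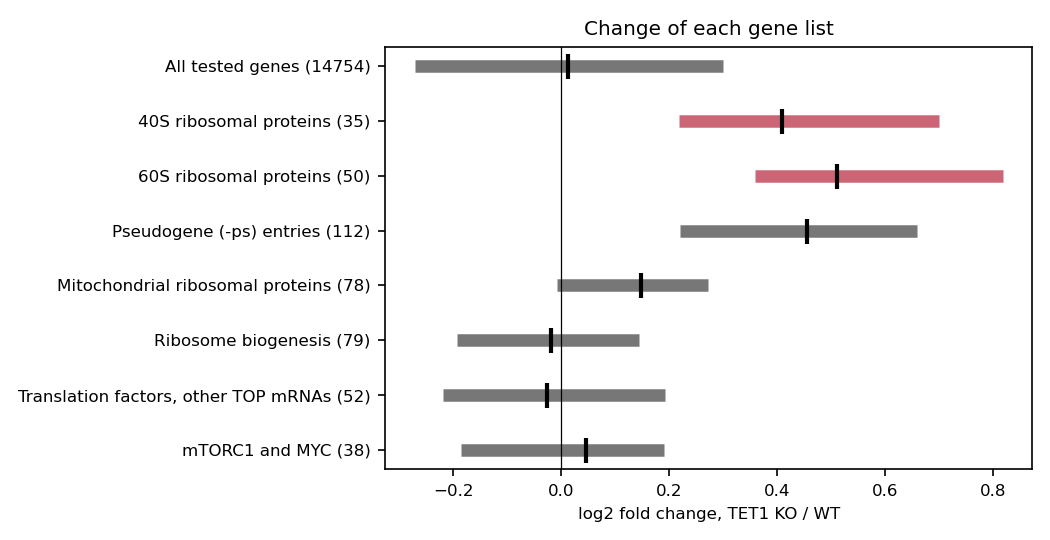
Median (line) and 25th to 75th percentile (bar) of the log2 fold change, TET1 KO over WT (x axis), over the genes of each list, with the number tested in brackets. The bars of the 40S and 60S members lie above 0, with medians of 0.41 and 0.51, and the bars of the biogenesis list, of the translation factors with other TOP mRNAs, and of the mTORC1 and MYC list span 0.

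Markers of other liver cell types were compared between the groups, since these cells could carry ribosomal protein mRNAs of their own. The 5 cholangiocyte markers, of which 3 reached 10 counts in every library, summed to 29.7 to 37.8 CPM in WT and 46.1 to 67.9 CPM in TET1 KO livers, and were thus separate between the groups. The 6 Kupffer cell and macrophage markers summed to 132 to 223 and 120 to 244 CPM, the 6 stellate cell markers to 197 to 304 and 187 to 265 CPM, and the 5 endothelial markers to 126 to 128 and 106 to 124 CPM. The endothelial sums were also separate between the groups, with every TET1 KO library below the WT libraries. Of the other blood cell markers, 0 of 6 for T and NK cells, 3 of 5 for B cells and 2 of 4 for neutrophils reached 10 counts in every library. The summed B cell markers were 7.54 to 15.2 CPM in WT and 9.44 to 27.7 CPM in TET1 KO livers, those of T and NK cells 1.82 to 2.65 and 1.69 to 3.73 CPM, and those of neutrophils 2.03 to 31.1 and 1.31 to 8.16 CPM. The 5 erythroid markers summed to 564 to 607 CPM in WT and 156 to 786 CPM in TET1 KO livers. Of the 41 markers tested, edgeR's quasi-likelihood test called 0. At an unadjusted p under 0.05, 6 were higher and 3 lower, against 13.6% and 12.7% of all tested genes, and 4 of those higher were cholangiocyte markers. DESeq2 called 3 higher, the cholangiocyte markers Epcam and Sox9 and the hepatocyte marker Apoa1, and 2 lower, Col1a1 and Lyve1. The part of other cell types in the members' difference was not tested.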

How the data were processed

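The authors deposited a table of featureCounts counts per Ensembl gene for each library. Per the labels, stranded libraries were made from mRNA isolated with poly(A) beads or, alternatively, after rRNA removal, and which was used is not given in the sources used here, nor are the strand and multimapping settings. The submitters' processing notes name Trimmomatic 0.36, GSNAP, featureCounts 1.5.3 and build GRCm38. Tables were joined by Ensembl ID after dropping 5 repeated entries.

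Counts were tested with edgeR 4.0.16 in R 4.3.3 (filterByExpr, TMM, glmQLFit with legacy = FALSE, glmQLFTest, Benjamini-Hochberg adjustment over all 14754 genes tested), which was checked on simulated data. CPM were computed from TMM-scaled library sizes. DESeq2 1.42.0 was an alternative. All 85 members passed the filter. Members, gene lists and named genes were chosen with earlier results of these data known. Given library by library were, in each subunit, the 6 members with the smallest p, the largest p and the 3 highest in CPM, up to 6 negative members, the P stalk, the paralogs and Rps6, and outside them the ribosomal proteins with other names and called list genes. A member and a ribosomal protein with another name that this rule takes in are not reported here. Rps3a1 entered as the 40S gene with the largest p. Rps13 and the other genes named from the lists, pseudogenes and markers were chosen after their values were seen. Lengths and 31-base words came from GENCODE M1 on NCBIM37, for 82 of 85 members, with no coordinates taken from it, and start windows from RefSeq on GRCm38.p6. The depth of 28 to 8984 counts per member and library limits the precision, and this covers counting error only. Other settings tried were size factors, filters, robust dispersion, a replicate block and leaving out each library.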

Additional observations from a re-analysis of the deposited data

Results flagged for a closer look

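Among 36 values examined in the 4 TET1 KO libraries (31 named members and 5 library sums), 2 had a library far from the other 3 by Dixon's ratio, the gap to the nearest library divided by the range of the group. Chance gives about 1.8 such flags among 36 values. Rpl8 had a ratio of 0.925, with 434 CPM in TET1 KO 1 and 343 to 350.0 CPM in the others. Rps7 had a ratio of 0.885, with 10.4 CPM in TET1 KO 4 and 6.45 to 6.90 CPM in the others.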

How the results depend on the processing

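The number of members called higher, 5 in all with 2 of the 40S and 3 of the 60S subunit, was 35 (12 and 23) with DESeq2, 19 (6 and 13) without a filter on low counts and 31 (11 and 20) with the replicate number as a block. It was 3 in all and 1 of the 60S subunit after the pseudogene entries were added. Leaving out each library in turn gave 0 to 25 members called higher, 0 to 8 of the 40S and 0 to 17 of the 60S subunit. The members called lower stayed at 0 throughout. Over all tested genes, 129 were called higher and 169 lower, against 626 and 689 with DESeq2, 245 and 347 without the filter, 671 and 656 with the block, and 16 to 427 and 21 to 464 without a library. The median log2 fold change ranged from 0.36 to 0.57 over the fits without a library, from 0.28 to 0.48 for the 40S and from 0.40 to 0.61 for the 60S subunit, each lowest without WT 2. Leaving out a library turned the sign of Rps3a1 (-0.19 to 0.062, positive without WT 2 and without TET1 KO 1), Rps4l (-0.011 to 0.20, negative without WT 2), Rpl4 (-0.29 to 0.033) and Rpl7 (-0.24 to 0.018), the last pair positive without TET1 KO 1. With pseudogene entries added, Rps2 (0.066) and Rpl7 (0.0050) turned positive. The cause was not tested. Of 496 comparisons of 31 named genes under 16 other settings, 429 kept direction and side of the threshold, 34 crossed it upwards and 26 downwards.

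The block was not used because same-numbered libraries did not deviate together, with correlations of 0.21, -0.12 and -0.10 for numbers 1 to 3 across genes, and not every library correlated best with its own number.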
